A study of Homo sapiens with 6 samples.

Results

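The genes described here are 38 genes of mitosis, out of 26364 genes in the table of the series. They were taken by symbol: mitotic cyclins and kinases, the spindle checkpoint, the anaphase-promoting complex or cyclosome (APC/C) with its partners, securin and separase, and the transcription factors FOXM1 and MYBL2. All 38 symbols were found. Of these, 27 are called regulators below and 11 are core subunits of the APC/C. RNA was sequenced from REH, a human cell line established from a B-precursor leukaemia, and is the only line studied. One group had been given S3I-201 at 50 µM for 6 h, a small molecule directed at STAT3, and the control group had been given its solvent DMSO for 6 h, with 3 libraries from independent experiments in each. The authors' deposited table pools the 6 libraries, so each member has its mean over all libraries (as normalized count) and 1 log2 fold change with its p-values, and no value per library can be shown. The sign of the fold change is not defined in the table. Negative values were read as lower with S3I-201, and under the opposite reading each direction below would turn.

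Entry into mitosis is driven by CDK1 bound to cyclin A or B. WEE1 and PKMYT1 hold the kinase inactive by phosphorylation, and CDC25 phosphatases together with PLK1 and Aurora A release it. The spindle checkpoint then holds the APC/C back until chromosomes are attached, after which the APC/C with its coactivator CDC20 marks securin and cyclin B for destruction. Many genes of these regulators are transcribed in G2 and mitosis, under MYBL2, FOXM1 and the MuvB complex, which binds the cell cycle genes homology region (CHR) of their promoters, often with NF-Y at CCAAT boxes nearby. Subunits of the APC/C itself are known as more evenly expressed through the cycle.

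Transcripts of the regulators were lower with S3I-201 in many cases, and those of the APC/C core did not pass the test. Among the 25 regulators that were tested in the authors' deposited table, 12 were lower, 0 were higher and 13 did not pass 0.05, the threshold used throughout. The authors' tool DESeq2 called 1.45% of 11912 tested genes lower and 4.45% higher at this threshold, or 5.9% in either direction. By the same DESeq2 adjusted p, 0 of the 11 core subunits were lower and 0 higher. At an unadjusted p under 0.05, 6.88% of all tested genes were lower and 9.11% higher, against 19 lower and 0 higher of the 25 regulators, and 1 lower and 0 higher of the 11 core subunits, a share near that of all genes. The 12 lower genes ranged from 1.52-fold for BORA to 2.80-fold for CCNB1 in the authors' deposited table. The median log2 fold change was -0.60 over the tested regulators, -0.20 over the core and -0.02 over all tested genes. Negative values were held by 22 of the 25 regulators and by 10 of the 11 core subunits, against 53.6% of all tested genes. Of the 36 tested members, 18 had a fold change below the 5th percentile of all tested genes, and all 18 were regulators. In RNA from a whole culture, fewer cells in G2 and mitosis and less RNA per such cell cannot be told apart.

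**Figure D1:**
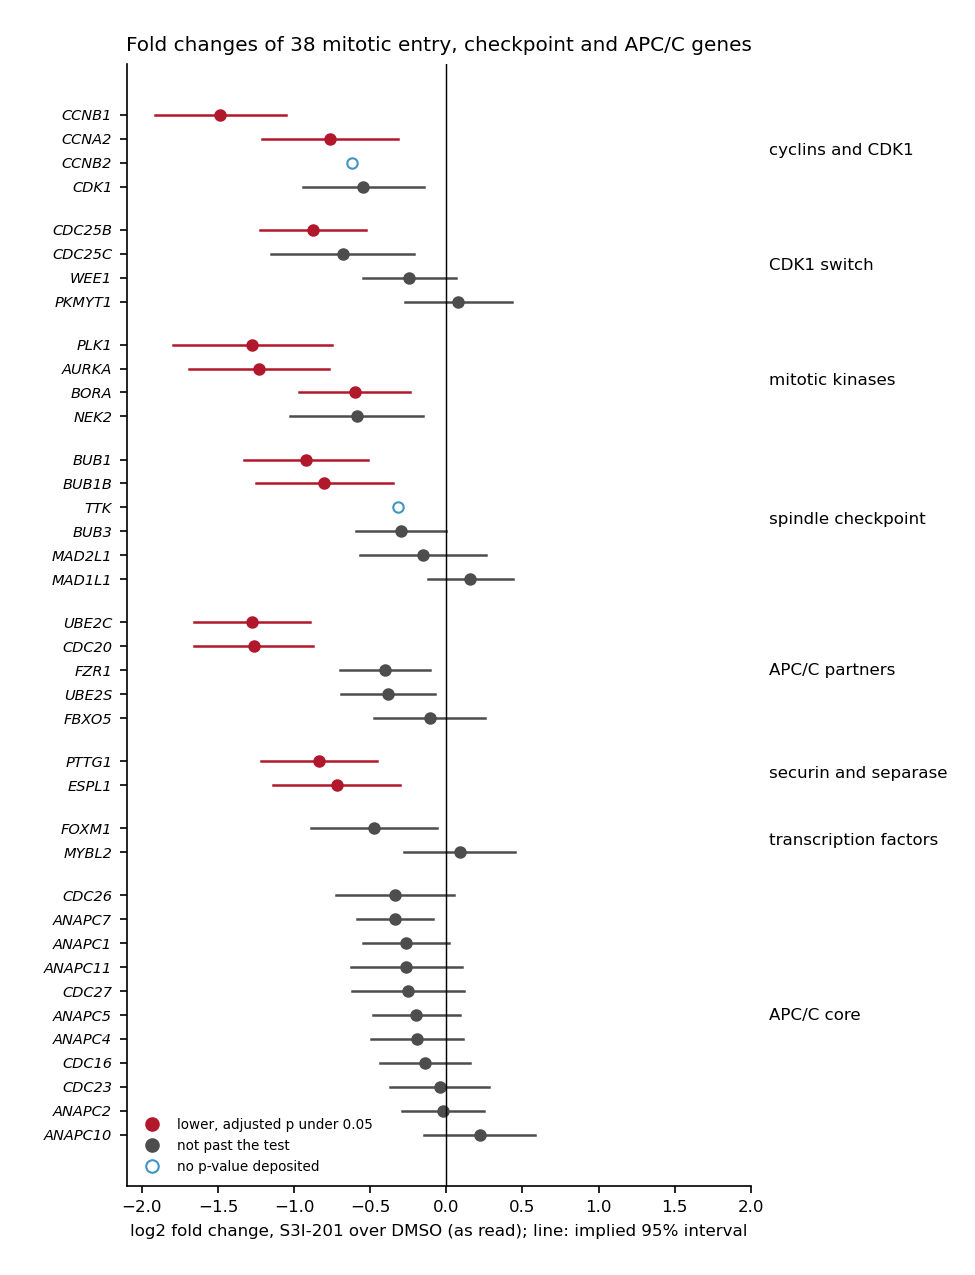
Log2 fold changes of the 38 genes by role, with implied 95% intervals (horizontal lines, from the authors' fold change and p-value); red marks genes lower at an adjusted p under 0.05, grey those not past it and open blue circles the 2 genes without a p-value. The 12 red genes lie at -0.60 or below, while all 11 APC/C core subunits lie between -0.34 and 0.22.

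Promoter letters are shown for 6 lower members, for CCNB2, which has a like fold change and no p-value, and for 2 core subunits, because the CHR is the element through which this gene class is known to be timed. These are examples. Both core subunits shown lack CHR letters, which 3 of the 11 hold. No tested regulator that missed the threshold is shown. FBXO5, with a log2 fold change of -0.11, had TTTGAA 40 bases before 1 of its starts and 4 CCAAT matches in that window. Each run is the 110 bases before a RefSeq transcript start (GRCh38.p14, the hg38 assembly), 5′ to 3′ on the gene's strand. Capitals mark matches on either strand. One form of the CHR searched was TTTGAA. The other form was TTCGAA, which is its own reverse complement. CHR letters below means these 2 forms only. Other forms were not searched, so a window without these letters may still hold another form. The NF-Y box was searched as CCAAT, and matches may overlap. The windows are PLK1 at chr16:23678779-23678888 (+), ESPL1 at chr12:53268189-53268298 (+), CCNB2 at chr15:59105036-59105145 (+), BUB1B at chr15:40160959-40161068 (+), CDC20 at chr1:43358871-43358980 (+), CDC25B at chr20:3796200-3796309 (+), CCNB1 at chr5:69167040-69167149 (+), CDC23 at chr5:138213324-138213433 (-) and ANAPC2 at chr9:137188561-137188670 (-).
PLK1: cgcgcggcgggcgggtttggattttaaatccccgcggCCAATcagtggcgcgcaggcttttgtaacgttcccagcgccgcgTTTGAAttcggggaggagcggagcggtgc
ESPL1: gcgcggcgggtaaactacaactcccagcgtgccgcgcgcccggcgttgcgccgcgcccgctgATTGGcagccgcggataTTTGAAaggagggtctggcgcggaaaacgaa
CCNB2: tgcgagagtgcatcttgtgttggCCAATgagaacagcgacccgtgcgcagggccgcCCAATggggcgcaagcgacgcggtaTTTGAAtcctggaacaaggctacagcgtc
BUB1B: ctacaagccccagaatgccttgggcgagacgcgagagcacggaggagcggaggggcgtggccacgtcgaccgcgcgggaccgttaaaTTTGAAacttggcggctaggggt
CDC20: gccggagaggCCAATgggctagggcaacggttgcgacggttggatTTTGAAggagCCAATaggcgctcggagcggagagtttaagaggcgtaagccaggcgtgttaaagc
CDC25B: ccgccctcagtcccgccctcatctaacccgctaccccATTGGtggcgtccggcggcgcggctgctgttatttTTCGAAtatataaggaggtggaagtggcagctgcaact
CCNB1: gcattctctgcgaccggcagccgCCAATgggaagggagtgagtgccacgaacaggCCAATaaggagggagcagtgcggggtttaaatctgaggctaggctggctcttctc
CDC23: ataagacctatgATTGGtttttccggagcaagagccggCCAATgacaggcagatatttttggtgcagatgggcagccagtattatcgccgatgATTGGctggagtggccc
ANAPC2: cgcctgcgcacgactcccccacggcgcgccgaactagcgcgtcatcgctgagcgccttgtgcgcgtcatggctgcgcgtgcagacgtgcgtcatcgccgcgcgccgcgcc

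In PLK1, ESPL1 and CCNB2 the CHR letters began 29, 31 and 29 bases before the start, with CCAAT letters further upstream in each. BUB1B had TTTGAA at 23 bases before the start and no CCAAT letters in its window. CDC20 had the nearer of its 2 CHR matches at 65 bases before the start, between CCAAT letters at 100 and 55 bases. In CDC25B, which has 4 listed starts, only the window shown held a CHR match, TTCGAA at 38 bases before that start. CCNB1, the gene with the largest decrease among the members, had CCAAT letters at 87 and 55 bases before its start. Neither searched form of the CHR was in this window. Among core subunits, CDC23 carried 3 CCAAT matches and no CHR match, and ANAPC2 carried neither.

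RefSeq windows of 250 bases before to 50 bases after a start were found for 31 of the 38 members, 47 windows in all, since 8 members have more than 1 start. AURKA, BUB3, FOXM1, PKMYT1, TTK, UBE2C and WEE1 have none in the table used. At least 1 window with CHR letters was present in 16 of the 31 members (51.6%, Wilson 95% interval 34.8 to 68.0), against 19.5% of the 27305 genes in the table. CCAAT letters were present in 21 of 31 (67.7%) against 39.7%. Both occurred in 11 of 31 members (35.5%) against 7.85% of all genes. Over single windows, CHR letters were in 18 of 47 member windows and in 16.4% of 35116 windows of all genes. Of the 10 lower members with a window, 7 held CHR letters and 9 held CCAAT letters, PTTG1, CCNA2 and CCNB1 being those without CHR letters and BUB1B the gene without CCAAT letters. Of the 13 tested regulators that did not pass, only 9 had a window, and of these 5 held CHR letters, 6 CCAAT letters and 4 both. The Wilson 95% intervals for CHR letters, 39.7% to 89.2% in the 10 lower members and 26.7% to 81.1% in these 9, overlap. Members were taken by symbol and not drawn at random, so Wilson intervals over members cover counting error only. All these groups, with the 11 core subunits, are too few for their shares to be read. In the APC/C core, 3 of 11 held CHR letters, 5 held CCAAT letters and 0 held both. These 3 CHR matches lay 236 bases before the start in ANAPC7, 37 bases after it in ANAPC1 and 89 bases before 1 of 4 starts of ANAPC10. A match is a run of letters and was not measured as a bound site.

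**Figure D2:**
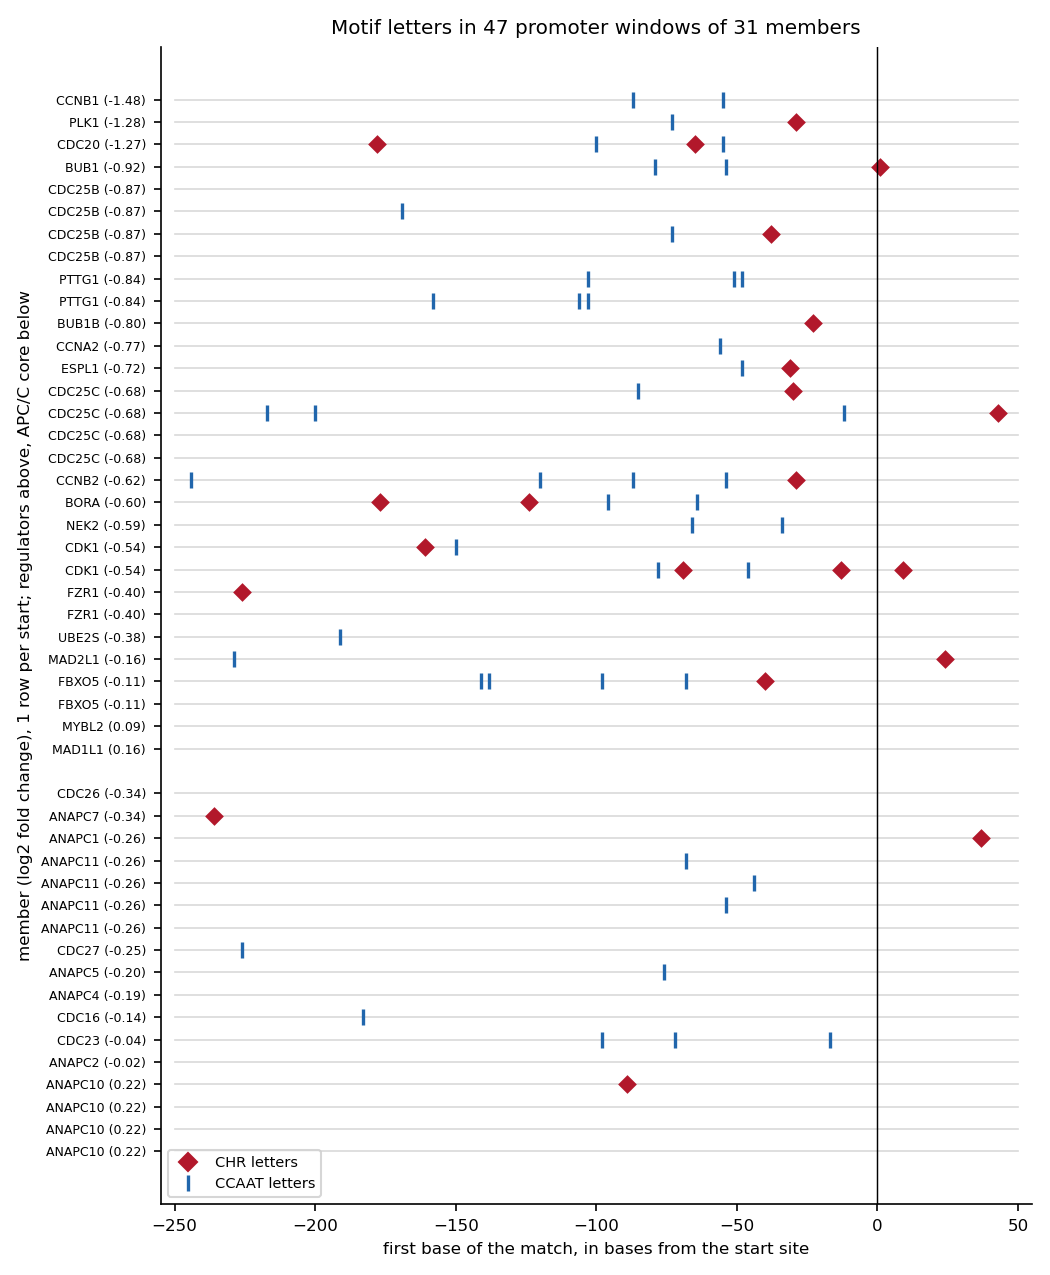
Positions of CHR letters (red diamonds) and CCAAT letters (blue bars) in 47 promoter windows of 31 members, in bases from the transcript start (vertical line), with 1 row per start; regulators above and APC/C core below, each ordered by log2 fold change (in brackets). CHR letters lie within 40 bases before a start in PLK1, BUB1B, ESPL1, CCNB2, CDC25B, CDC25C, CDK1 and FBXO5, and in 0 of the core subunits.

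Among the cyclins, CCNB1 had the largest change. CCNB1 encodes cyclin B1, the main mitotic partner of CDK1, and lies on chromosome 5 from 69167010 to 69178245 (hg38, whole gene). Its mean normalized count was 837, and it fell 2.80-fold in the authors' deposited table (log2 fold change -1.48, implied SE 0.22, adjusted p = 2.31e-09). The implied SE is the one that a normal test would need to turn this fold change into its p-value. CCNA2, cyclin A2 of S phase and G2, fell 1.70-fold at a mean of 1495 in the authors' deposited table (adjusted p = 0.0175). CDK1 itself, the kinase, had a log2 fold change of -0.54 at a mean of 1078, which missed the threshold in the authors' deposited table (adjusted p = 0.0973). For CCNB2, the other B-type cyclin, the authors' deposited table lists -0.62 at a mean of 1155, without a p-value. The kinase subunit thus had the smallest value of the 4, though its implied interval of -0.94 to -0.15 overlaps that of CCNA2, from -1.21 to -0.32.

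The phosphatases that activate CDK1 had larger negative values than the kinases that restrain it. CDC25B, which acts at the start of mitosis, fell 1.83-fold at a mean of 868 in the authors' deposited table (log2 fold change -0.87, implied SE 0.18, adjusted p = 5.44e-05). CDC25C, its relative, had -0.68 at a mean of only 109, which missed the threshold in the authors' deposited table (adjusted p = 0.0704, implied SE 0.24). WEE1, the nuclear inhibitory kinase, had -0.24 with an implied interval of -0.55 to 0.06 in the authors' deposited table (adjusted p = 0.494). PKMYT1, the membrane-bound inhibitory kinase, had 0.08 with an interval of -0.27 to 0.43 (adjusted p = 0.911). The interval of CDC25B, -1.22 to -0.53, ends above the lower bound for WEE1, so the values of these 2 overlap at their edges, and it does not reach that of PKMYT1. Differences between genes were not tested, because the covariance between genes of the same libraries is not in the table.

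Of the mitotic kinases with their cofactor, 3 of 4 fell. PLK1, a polo-like kinase needed from entry to cytokinesis, fell 2.42-fold at a mean of 1481 in the authors' deposited table (log2 fold change -1.28, implied SE 0.27, adjusted p = 1.05e-04). AURKA, Aurora A of the centrosome and spindle, fell 2.35-fold at a mean of 604 in the authors' deposited table (adjusted p = 1.25e-05). BORA, the cofactor with which Aurora A activates PLK1, fell 1.52-fold at a mean of 251 in the authors' deposited table (adjusted p = 0.0258). NEK2, which separates centrosomes, had -0.59 at a mean of 409.6, close to the value of BORA, and missed the threshold in the authors' deposited table (adjusted p = 0.107, implied SE 0.22 against 0.19 for BORA). All 3 genes of the BORA, Aurora A and PLK1 axis were therefore among those called lower.

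In the spindle checkpoint some members were called lower and others were not. The kinase BUB1 fell 1.90-fold at a mean of 1377 in the authors' deposited table (log2 fold change -0.92, implied SE 0.21, adjusted p = 4.52e-04). BUB1B, whose product BUBR1 inhibits CDC20, fell 1.74-fold at a mean of 1355 in the authors' deposited table (adjusted p = 0.0117). BUB3, the WD-repeat partner of both, had -0.30 at a mean of 5437 and missed the threshold in the authors' deposited table (adjusted p = 0.301). MAD2L1, the MAD2 protein that captures CDC20, had -0.16 and missed the threshold in the authors' deposited table (interval -0.57 to 0.26, adjusted p = 0.818). MAD1L1, the anchor of MAD2 at kinetochores, had 0.16 and missed the threshold in the authors' deposited table (interval -0.12 to 0.43, adjusted p = 0.676). TTK, the kinase MPS1 that starts the signal, is listed in the authors' deposited table at -0.32 and a mean of 551, without a p-value. Of the 5 tested checkpoint genes, 2 were lower, both of the BUB kinase family, and the MAD genes had values nearer to 0. The implied intervals of BUB1, -1.33 to -0.52, and BUB1B, -1.25 to -0.35, overlap those of MAD2L1 and BUB3 (-0.59 to -0.005). They do not reach that of MAD1L1.

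The partners of the APC/C divided in pairs of like function. CDC20, the coactivator used in mitosis, fell 2.41-fold at a mean of 1389 in the authors' deposited table (log2 fold change -1.27, implied SE 0.20, adjusted p = 2.48e-08). FZR1, the coactivator CDH1 used at mitotic exit and in G1, had -0.40 at a mean of 864, which missed the threshold in the authors' deposited table (adjusted p = 0.0981, implied SE 0.15). Their implied intervals, -1.66 to -0.88 and -0.70 to -0.11, do not overlap. UBE2C, the ubiquitin-conjugating enzyme that starts chains, fell 2.42-fold at a mean of 809 in the authors' deposited table (log2 fold change -1.28, implied SE 0.19, adjusted p = 8.69e-09). UBE2S, the enzyme that extends those chains, had -0.38 at a mean of 1269 in the authors' deposited table (interval -0.69 to -0.08, adjusted p = 0.149), and its interval does not overlap that of UBE2C, -1.66 to -0.90. FBXO5, the inhibitor EMI1 that holds the APC/C inactive in S phase and G2, had -0.11 and missed the threshold in the authors' deposited table (interval -0.47 to 0.25, adjusted p = 0.866).

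Securin and separase both fell. PTTG1, securin, the inhibitor that the APC/C destroys at anaphase, fell 1.79-fold at a mean of 1226 in the authors' deposited table (log2 fold change -0.84, implied SE 0.20, adjusted p = 8.39e-04). Its near-identical copies PTTG2 and PTTG3P had means of only 0.598 and 0.697 there, although reads shared between copies could have been split. ESPL1, separase, the protease that opens cohesin rings, fell 1.65-fold at a mean of 1563 in the authors' deposited table (adjusted p = 0.0154). The protease and its inhibitor thus had values that differ by less than their implied errors.

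Neither transcription factor passed. FOXM1, a forkhead activator of G2 and mitosis genes, had -0.47 at a mean of 2293 in the authors' deposited table (interval -0.89 to -0.06, adjusted p = 0.211). MYBL2, the B-MYB partner of MuvB, had 0.09 at a mean of 5391 in the authors' deposited table (interval -0.28 to 0.45, adjusted p = 0.900). The interval of MYBL2 includes 0, so its value gives no direction. Only RNA was measured, and the activity of either factor was not tested.

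The 11 APC/C core subunits lay close together, from -0.34 to 0.22 on the log2 scale. Of the scaffold subunits ANAPC1, ANAPC4 and ANAPC5, the authors' deposited table gives -0.26, -0.19 and -0.20 at means of 1354, 451 and 2909. The catalytic pair, the cullin-like ANAPC2 and the RING subunit ANAPC11, had -0.02 and -0.26 in the authors' deposited table, with implied intervals of -0.29 to 0.24 and -0.63 to 0.10. ANAPC10, which holds substrates together with the coactivator, had 0.22 in the authors' deposited table, the one positive value of the core, with an interval of -0.14 to 0.58 at a mean of 143. Of the subunits with tetratricopeptide repeats, CDC16 had -0.14, CDC23 -0.04, CDC27 -0.25 and ANAPC7 -0.34 in the authors' deposited table. CDC26, the small subunit that steadies CDC16, had -0.34 at a mean of 120.0 in the authors' deposited table (adjusted p = 0.426). ANAPC7 had the smallest adjusted p of the core in the authors' deposited table, 0.106, and its interval of -0.58 to -0.09 was the only one of the 11 that did not include 0.

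The core was measured more tightly than the regulators. The median implied SE was 0.15 over the core and 0.20 over the tested regulators. A call needed a change of at least 2.97 times the implied SE, which for core subunits came to between 0.38 and 0.59 on the log2 scale. All 12 lower regulators had larger changes than 0.59. This was largely fixed by the call that picked them, which itself needed between 0.53 and 0.79 in these 12 genes. The largest size in the core was 0.34. The lowest bound of any core interval was -0.72, for CDC26. Below it lay the whole interval of 5 regulators: CCNB1, CDC20, UBE2C, AURKA and PLK1. For the other 7 lower regulators the interval overlapped at least the interval of CDC26. Changes smaller than these limits in the core were not detectable with these libraries, and 10 of its 11 values were negative.

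**Figure D3:**
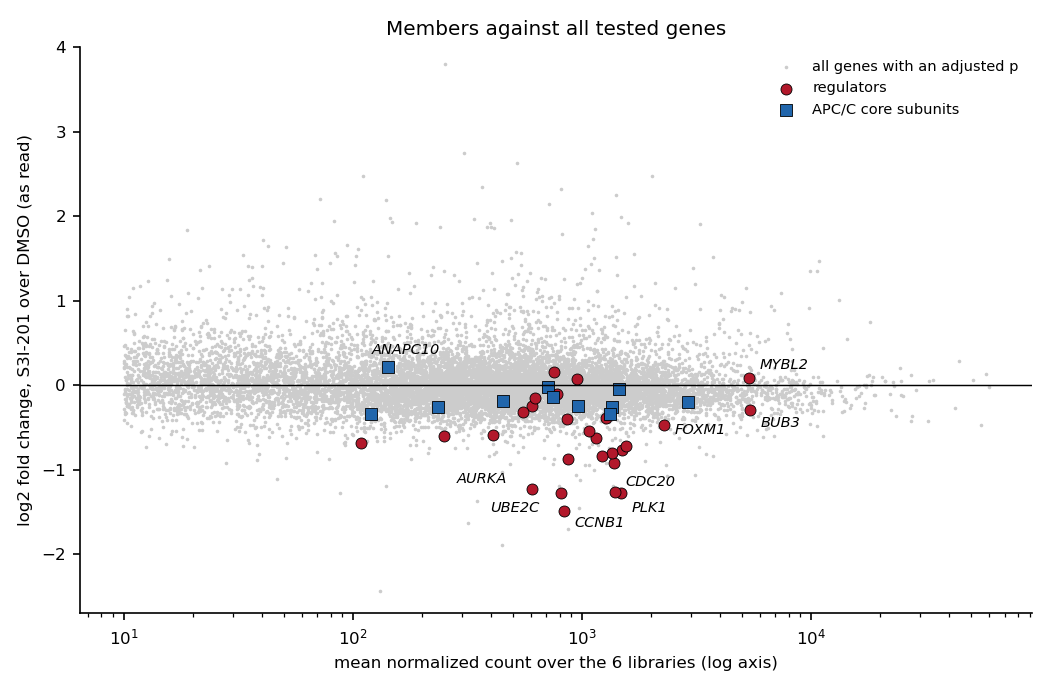
Log2 fold change against the mean normalized count (log axis) for all genes with an adjusted p (grey points), the 27 regulators (red circles) and the 11 APC/C core subunits (blue squares). Regulators such as CCNB1, CDC20 and PLK1 lie below the bulk of genes of like abundance, while the core lies within it and MYBL2 lies near 0 at a mean of 5391.

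Several regulators had wide errors for their abundance. Each tested member was set beside the 200 tested genes nearest in mean normalized count. The implied SE was above the median of these neighbours in 22 of 25 regulators, including all 12 lower ones, and in 4 of 11 core subunits. PLK1 stood out with 0.27 against a neighbour median of 0.15, and 99.5% of its neighbours had a smaller value. CCNA2 and BUB1B exceeded 99.0% of theirs, and FOXM1 also 99.0%, while BORA exceeded 55.5% and ANAPC7 8.0%. Over all tested genes the implied SE did not exceed 0.27, a ceiling that PLK1 reached, so its error and the size of its change may both be understated. CCNB2 and TTK had no p-value, which is how DESeq2, unless told otherwise, marks a gene when 1 library's count is extreme. These are 2 of 38 members, against 0.684% of the 11994 genes with a mean of at least 10. Which library carried such a count is not in the table, and its part in the results was not tested.

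**Figure D4:**
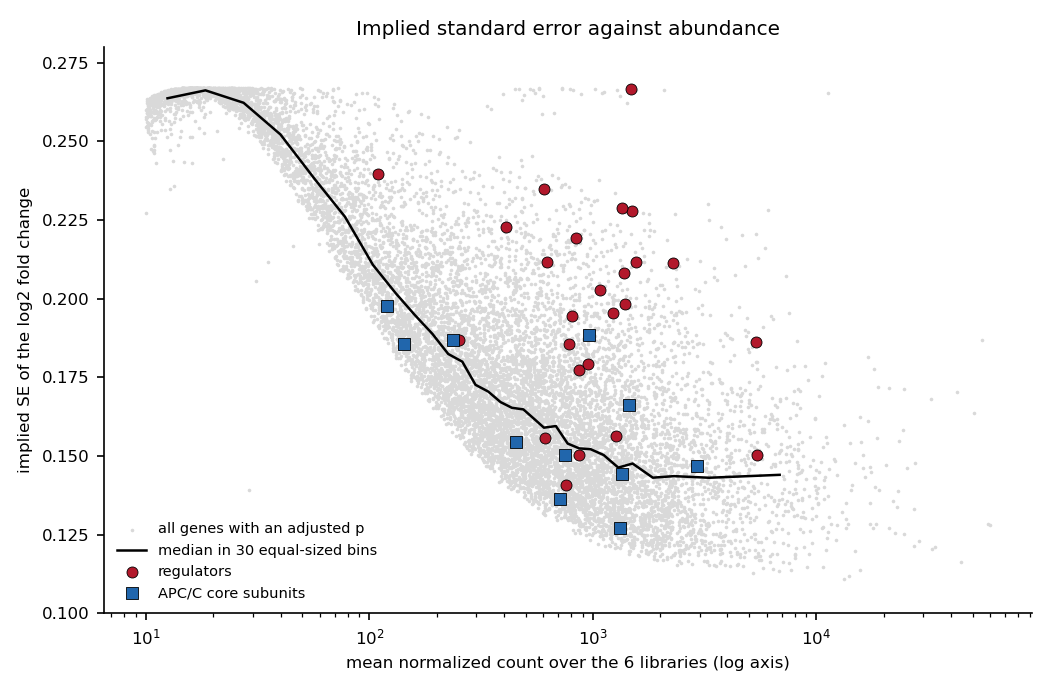
Implied standard error of the log2 fold change against the mean normalized count (log axis) for all genes with an adjusted p (grey points), with the median in 30 equal-sized bins (black line), regulators (red circles) and APC/C core subunits (blue squares). Most regulators lie above the line and PLK1 lies at the ceiling of 0.27, while 7 of the 11 core subunits lie at or below the median of their 200 neighbours in mean.

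On a scale per length, the levels of the lower regulators and the core overlapped, with a higher median in the lower regulators. The mean normalized count per kb of exon (GENCODE release 29, union of basic transcripts) ran from 78.7 for BORA to 1066 for PTTG1 among the 12 lower members, with a median of 382. In the core this level ran from 73.4 for ANAPC10 to 912 for ANAPC5, with a median of 168. The next highest core value was 380 for CDC23, below the median of the lower members. MYBL2 had the highest level per kb of all members, at 1941, and CDC25C the lowest, at 42.4.

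Further genes of the same processes gave the following counts. The counts by the DESeq2 adjusted p below are to be read against the 1.45% lower and 4.45% higher of all tested genes. Those at an unadjusted p are to be read against 6.88% lower and 9.11% higher. Of 25 tested further genes of mitotic entry and exit (kinases, cyclins and phosphatases, with some of their cofactors and other G2 and mitosis genes), 6 were lower and 0 higher in the authors' deposited table by the DESeq2 adjusted p, or 8 lower and 0 higher at an unadjusted p under 0.05, with a median of -0.08. CCNF, a cyclin and F-box protein, fell 2.29-fold in the authors' deposited table (log2 fold change -1.20, adjusted p = 3.19e-06), and HMMR, a spindle protein, fell 2.04-fold (adjusted p = 4.62e-04). TPX2, which activates Aurora A on the spindle, fell 1.76-fold (adjusted p = 0.00274) and CKS2, a CDK-binding subunit, fell 1.48-fold in the authors' deposited table (adjusted p = 0.00449). The other two lower genes were AURKB, the kinase Aurora B, and GTSE1, a microtubule-binding protein. Of 8 further checkpoint genes 0 passed in either direction by the DESeq2 adjusted p, with 2 lower and 0 higher at an unadjusted p under 0.05 and a median of -0.10. TRIP13, which recycles MAD2, came nearest in the authors' deposited table with -0.53 (adjusted p = 0.0563), followed by SPDL1 with -0.49 (adjusted p = 0.164), ZW10 with -0.12 (adjusted p = 0.780) and CASC5, the kinetochore scaffold KNL1, with -0.22 (adjusted p = 0.782).

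Among 10 further tested APC/C subunits and partners, 1 was lower and 0 higher by the DESeq2 adjusted p, 2 and 0 at an unadjusted p under 0.05, with a median of -0.07. The lower gene was FBXO43, the APC/C inhibitor EMI2, which fell 1.68-fold at a mean of 216 in the authors' deposited table (adjusted p = 0.0126). For the subunits ANAPC15 and ANAPC16 the authors' deposited table gives -0.39 (adjusted p = 0.199) and 0.24 (adjusted p = 0.370), and for BTRC, a receptor of another ubiquitin ligase, -0.22 (adjusted p = 0.521). Of 16 MuvB, DREAM and NF-Y genes, 1 was lower and 0 higher by the DESeq2 adjusted p, 3 and 1 at an unadjusted p under 0.05, with a median of -0.04. This was NFYA, the NF-Y subunit that contacts CCAAT boxes, which fell 1.35-fold at a mean of 1312 in the authors' deposited table (adjusted p = 0.0453). NFYA did not pass when p-values were adjusted over every gene that has one, with the abundance trend removed or with a minimum log2 size of 0.5. For LIN37 of MuvB the authors' deposited table gives 0.52 (adjusted p = 0.0982), for E2F5 -0.55 (adjusted p = 0.167) and for RBL2, the p130 protein, -0.28 (adjusted p = 0.305).

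Genes of the preceding phases had mostly positive values. Of 11 tested cyclins, kinases and E2F factors of G1 and S phase, 0 were lower and 1 was higher by the DESeq2 adjusted p, 0 and 2 at an unadjusted p under 0.05, with a median of 0.21 and 8 positive values, where 46.4% of all tested genes were positive. E2F2, an activator of S phase genes, rose 1.65-fold in the authors' deposited table (log2 fold change 0.72, adjusted p = 0.0113). For CCNE2, cyclin E2, the authors' deposited table gives 0.40 (adjusted p = 0.259), for E2F3 0.32 (adjusted p = 0.318) and for E2F1 0.30 (adjusted p = 0.331), and these did not pass. The difference between these genes and the members was not tested.

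Some members share sequence or position with other genes, and libraries made by the TruSeq RNA v2 method carry no strand. Exons of genes on the opposite strand cover at least 10% of the exon bases of 6 members: BORA with 37.0% (DIS3), PKMYT1 with 28.6% (PAQR4 and KREMEN2), CDC26 with 23.9% (PRPF4), FOXM1 with 21.4% (ITFG2), ANAPC10 with 14.3% (ABCE1) and CDC25C with 11.4% (FAM53C). In the authors' deposited table, DIS3 had 0.19 (adjusted p = 0.646) against -0.60 for BORA. FAM53C rose in the authors' deposited table, with a log2 fold change of 0.80 (adjusted p = 0.00359), against -0.68 for CDC25C. Exons of other genes on the same strand cover 24.0% of ANAPC10, 15.8% of ANAPC7 and 10.3% of BUB1B. The values of all these members are less certain, and the part of the overlapping genes was not tested. ANAPC1P1, a long copy of ANAPC1, had a mean of 0 there. Reads shared by the copies were not examined, and the value of ANAPC1 is uncertain where such reads could not be told apart.

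The cells carried B-precursor transcripts. Of 12 markers of that stage, 11 were detected, with means up to 13622 for DNTT and 10307 for RAG1, and VPREB1 was at 0 in the authors' deposited table. By the DESeq2 adjusted p 0 of the 9 tested markers passed, 2 were lower and 0 higher at an unadjusted p under 0.05, and the 9 values ran from -0.31 to -0.06. Of 13 markers of T, myeloid, erythroid and stromal cells, 9 had a mean under 10 and 5 of these were at 0, CD3D, CD3E, CD3G, HBB and COL1A2. The summed mean of these 13 was 1245, of which the myeloid gene MPO gave 978, against 59888 for the 12 B-precursor markers. Of the 13, 4 were tested and 0 passed by the DESeq2 adjusted p, nor at an unadjusted p under 0.05.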

How the data were processed

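RNA of 6 cultures, 3 with DMSO and 3 with S3I-201, was sequenced with TruSeq RNA v2 libraries, per the labels' protocols. bcl2fastq 2.19, Trimmomatic, Bowtie2, Picard, featureCounts and DESeq2 with hg38 are named in the submitters' processing notes. The annotation, strand setting and DESeq2 model are not given in the sources used here. Per the file headers, the authors deposited a mean normalized count (a signal: counts divided by size factors), a p-value before and after adjustment, and the log2 fold change of each gene. Means of rarely detected genes rose in 6 steps of a single read, which scale to about 6600000 to 14500000 counts per library. Whether the deposited fold changes were shrunken towards 0 is not stated. Implied SEs were small even at the lowest means, 0.098 for PTTG2 at 0.598 and 0.11 for PTTG3P at 0.697. The median over all tested genes was 0.18, and the largest 0.27. Small errors at such low counts are a trait of shrunken values. The fold changes and intervals given here are therefore best read as shrunken, though shrinkage was not tested. If the values were shrunken, changes of weakly or variably expressed genes would be understated, and the implied intervals would describe the shrunken values.

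The authors' adjusted p was used as deposited, over 11912 genes, at 0.05. Implied SEs and 95% intervals came from the fold change and p-value with Python 3.11.15 and scipy 1.17.1, and cover the spread between these libraries, on the scale of the deposited fold changes. The steps were tested on simulated data. Positions and exon lengths came from GENCODE 29 and promoters from RefSeq (GRCh38.p14), with older symbols matched: 9535 of 11912 tested genes had a window. Named are all 38 members and, of each further list, up to 4 genes with the smallest adjusted p; opposite-strand genes, copies and the remaining lower genes were named after their values were seen. One listed marker gene is not reported here. Members, lists and alternatives (other thresholds, adjustment over all genes, removal of the abundance trend in 20 bins, a minimum fold, other promoter windows) were chosen with earlier results of these data known. P-values rest on independent experiments, per the labels.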

Additional observations from a re-analysis of the deposited data

How the results depend on the processing

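No paired analysis was possible because the deposited values pool the 6 libraries; for the same reason no library could be left out. Of the members, 12 were lower at an adjusted p of 0.05, 8 at 0.01 and 15 at 0.1. Under each of 3 other settings 12 were lower: adjustment over every gene that has a p-value, removal of the abundance trend and a minimum log2 size of 0.5. By the DESeq2 adjusted p, 1.45% of all tested genes were lower at 0.05. Their shares under the other settings were not computed, so counts under those settings cannot be set beside such a share. At 0.01 the calls of CCNA2, BORA, BUB1B and ESPL1 were lost, and at 0.1 those of CDK1, CDC25C and FZR1 were gained. No member was called higher and no core subunit was called under these 5 alternatives. The median of the regulators ran from -0.59 (trend removed) to -0.74 (mean of at least 1000), and that of the core from -0.18 to -0.23 under the same settings.

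At 0.01 the lower counts became 0 for further APC/C genes and 0 for MuvB, DREAM and NF-Y genes, and the higher count of G1 and S genes became 0. The MuvB, DREAM and NF-Y list also had 0 lower with that wider adjustment, 0 with the abundance trend removed and 0 at the minimum log2 size, all through NFYA. At 0.1 it had 1 higher, LIN37, and the further checkpoint genes 1 lower, TRIP13. CCAAT letters on the gene's own strand alone were found in 12 members against 21 on both strands, by construction of the search, and CHR letters in 14 against 16. In the stretch from 100 bases before to 50 after a start, 13 members held CHR letters and 17 CCAAT letters. Depth limits CDC25C and CDC26 most, with means of 109 and 120.0.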

Other observations

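Promoter letters were also counted over all genes whose call is known, with older symbols matched. CHR letters occurred in 15.4% of 9535 tested genes with a window, in 16.4% of 427 higher genes and in 31.9% of 141 lower genes (45 of 141, Wilson 95% interval 24.8 to 40.0). Without the members, 38 of 131 lower genes held them (interval 21.9% to 37.3%). Both CHR and CCAAT letters occurred in 6.40% of tested genes, 7.49% of higher genes and 21.4% of the 131 lower genes outside the members (interval 15.2 to 29.2). In the shorter stretch from 100 bases before to 50 after a start, both occurred in 1.98% of tested genes, 1.64% of higher genes and 13.7% of those 131 genes (interval 8.87 to 20.7). CCAAT letters in the whole window were about as common in higher genes (55.7%) as in lower genes outside the members (56.5%), against 43.6% of tested genes. In the shorter stretch they were in 38.6% of higher genes and 45.8% of lower genes outside the members, against 29.2% of tested genes. Genes that share an ancestor or a promoter are not independent, so the intervals cover counting error only, and no test was made.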
